A study of Mus musculus with 16 samples.

Results

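The comparison described here sets the hippocampus of conditional Foxp1 knockout mice against the neocortex of mice of the same genotype. It asks which regional differences of gene expression remain, vanish or appear in these knockouts. The 8 knockout libraries, 4 from hippocampus and 4 from cortex, were chosen by their titles from 16 libraries in all. The remaining 8 libraries come from control littermates, again 4 from hippocampus and 4 from cortex. All mice were males at postnatal day 47, and poly(A) RNA came from dissected, frozen tissue of the left hemisphere. The study's title speaks of Foxp1 in forebrain pyramidal neurons, so other cells of the tissue may still carry the gene. No source used here names the Cre driver or the deleted part of Foxp1, or tells whether single mice gave tissue of both regions. The design text calls the 4 replicates of a genotype independent.

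Foxp1 encodes a forkhead transcription factor that binds DNA and acts mostly as a repressor, and variants of the human gene are linked to autism and intellectual disability. The hippocampus is built from the dentate gyrus and the fields CA1, CA2 and CA3. The neocortex is built from layers of pyramidal neurons, and both regions hold interneurons, glia and vessels. Regional identity is set by transcription factors such as Prox1 and Zbtb20 in hippocampus and Tbr1 in neocortex. In whole tissue, fewer cells of a type and less RNA per cell cannot be told apart.

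Depth, the total of whole reads recovered from the deposited CPM, ran from 6943136 to 14055344 reads in knockout hippocampus, from 8160441 to 9164571 in knockout cortex, from 9578904 to 14817870 in control hippocampus and from 7075560 to 9037821 in control cortex. Levels are counts scaled to equal library totals (CPM), not divided by length, so they compare a gene between libraries and not 1 gene with another. Values per library follow the order DJ15, DJ16, DJ18 and DJ19 for knockout hippocampus, DJ1, DJ2, DJ4 and DJ5 for knockout cortex, DJ17, DJ20, DJ21 and DJ22 for control hippocampus, and DJ3, DJ6, DJ7 and DJ8 for control cortex. A regional difference is the log2 fold change of log2(CPM + 0.5), hippocampus minus cortex, with its standard error (SE), which understates the change of low genes. A regional difference was called at an adjusted p below 0.05 by limma with Benjamini-Hochberg adjustment over all genes tested. The region by genotype difference is the regional difference in knockouts minus that in controls, tested over all 16 libraries.

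Foxp1 itself was below the control level in both knockout regions. It held 113, 102, 139.9 and 121 CPM in knockout hippocampus and 96.00, 108, 105 and 144 CPM in knockout cortex, against 276, 248, 214 and 171 CPM in control hippocampus and 265, 298, 288 and 286 CPM in control cortex. The knockout values of the regions overlapped, and every knockout library lay below every control library. The regional difference in knockouts was 0.07 (SE 0.12), and a two-sided exact permutation test over 70 labellings gave p = 0.629. In controls Foxp1 was lower in hippocampus (log2 fold change -0.34, SE 0.11, limma adjusted p = 0.030; two-sided exact permutation p = 0.0571), and leaving out 1 control library ended that limma call in 5 of the 8 fits, with an adjusted p of up to 0.079. For Foxp1 the region by genotype difference was 0.42 and did not pass (limma adjusted p = 0.30).

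Most regional differences called in knockouts were also called in controls, and the reverse. Foxp1 RNA was reduced in the knockout tissue and not absent. In knockouts 4816 of 13935 genes were called between hippocampus and cortex (34.6%), 2853 higher in hippocampus (20.5%) and 1963 lower (14.1%). Of these, 639 were at least 1 log2 unit higher (4.59%) and 325 at least 1 log2 unit lower (2.33%). In controls 5222 of 13823 genes were called (37.8%), 2888 higher (20.9%) and 2334 lower (16.9%). Among the 13724 genes tested in both genotypes and for the region by genotype difference, 3382 were called with the same direction in both, which is 71.0% of the 4761 called in knockouts and 65.1% of the 5197 called in controls. The region by genotype difference was called for 378 of 13881 genes (2.72%), 163 with a higher (1.17%) and 215 with a lower value in knockouts (1.55%).

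Each gene was placed in a class by the 3 tests. A regional difference was kept for 3225 genes (23.5%), which were called in both genotypes with 1 direction and had no called region by genotype difference. It was narrowed for 130 genes (0.947%) and widened for 27 (0.197%), which were called in both with 1 direction and differed in size. It was lost for 112 genes (0.816%), called in controls only and with a called region by genotype difference, and gained for 71 (0.517%), called in knockouts only with such a difference. It was reversed for 35 genes (0.255%), called in both with opposite direction. A further 1667 genes (12.1%) were called in controls only and 1272 (9.27%) in knockouts only without a called region by genotype difference, so they are not shown to differ between genotypes. Without control hippocampus DJ17 the called region by genotype differences numbered 699, the lost 207, the gained 199, the reversed 54 and the widened 56. Without control hippocampus DJ20 they numbered 248, with 71 lost, 23 reversed and 86 narrowed. Narrowed differences numbered 81 without knockout cortex DJ2, 86 without knockout cortex DJ4, 85 without knockout cortex DJ5 and 85 without control cortex DJ8. Widened differences numbered 47 without knockout hippocampus DJ15, 17 without control cortex DJ6, 17 without control cortex DJ8 and 16 without control hippocampus DJ21.

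A called regional difference of at least 1 log2 unit was found for 6.92% of the genes tested in knockouts and 7.46% of those tested in controls. Among the 1012 such genes in controls that were tested in all comparisons, 910 were called with the same direction in knockouts, 817 of them kept, 89 narrowed and 4 widened. In this set 19 were lost and 4 reversed. Of the 934 in knockouts, 841 were called with the same direction in controls, 13 were gained and 2 reversed. The knockout and control values of a gene differed more in cortex than in hippocampus for 79 of the 112 lost, 53 of the 71 gained, 27 of the 35 reversed and 91 of the 130 narrowed differences. For the kept differences that count was 1761 of 3225, and for the widened ones 14 of 27.

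The 12 largest hippocampal excesses in knockouts were taken among called genes with non-overlapping regions and at least 5 CPM. They included 4 members of the list of choroid plexus and ependymal markers and 2 of the dentate granule list. Ttr, the thyroid hormone carrier that the choroid plexus secretes, held 802, 1146, 1480.5 and 793 CPM in knockout hippocampus and 202, 3.31, 1.59 and 4.15 CPM in knockout cortex. It differed by 6.78 in knockouts and 6.85 in controls (limma adjusted p = 8.0e-05 and 2.9e-04). Knockout cortex DJ1 stood far above the other cortices, and the regions did not overlap. Otx2, a homeobox factor of the choroid plexus, Clic6, of the intracellular chloride channel family, Kl, which encodes klotho, and Cldn2, a claudin of tight junctions, differed by 4.53, 4.75, 4.50 and 4.35. Tmem72, a transmembrane protein gene, F5, which encodes coagulation factor V, and Tspan18, a tetraspanin, differed by 5.07, 4.53 and 4.47. Cldn2, Tmem72 and F5 are not on that list. Like Ttr and Kl, they stood apart in knockout cortex DJ1 and in control cortex DJ6 from the other cortices of the genotype. All 9 choroid plexus and ependymal markers tested in knockouts were called higher in hippocampus, as were all 8 tested in controls. None had a region by genotype difference called by limma, edgeR or DESeq2. At an unadjusted limma p under 0.05 there were 0 of 9 (all genes: 1915 of 13881). Their summed level was 944, 1378, 1837 and 983 CPM in knockout hippocampus and 233, 8.70, 6.10 and 11.6 CPM in knockout cortex, and 987, 1051, 1060.4 and 577 CPM in control hippocampus and 5.71, 158, 10.3 and 7.78 CPM in control cortex. The part of choroid plexus carried over in dissection was not tested.

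Dsp, which encodes the junction protein desmoplakin and marks dentate granule cells, held 18.8, 36.6, 48.5 and 33.9 CPM in knockout hippocampus and 0.664, 0.490, 0 and 0 CPM in knockout cortex. Its regional difference was 5.50 in knockouts and 6.08 in controls, and neither pair of regions overlapped. C1ql2, a secreted synaptic protein of granule cells, differed by 4.17 in knockouts and 4.22 in controls, and the LIM homeobox gene Lhx9, on the list of thalamic markers, by 5.06 in knockouts and 5.74 in controls. The remaining gene of the 12 largest excesses, Vgll3, was gained. The other 11 were kept.

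The 12 largest cortical excesses, chosen in the same way, included upper-layer markers. Lamp5, of the lysosome-associated membrane protein family, held 53.3, 25.3, 29.3 and 30.4 CPM in knockout hippocampus and 309.8, 281, 274 and 274 CPM in knockout cortex (log2 fold change -3.08, SE 0.16, limma adjusted p = 6.1e-09). The regions did not overlap, and the control difference was -2.60. Stard8, a GTPase-activating protein, differed by -2.60 in knockouts. Igfn1, which encodes an immunoglobulin-like and fibronectin domain protein, had the largest deficit in hippocampus, with 7.68, 3.74, 1.16 and 2.35 CPM in knockout hippocampus and 74.9, 70.6, 51.5 and 60.01 CPM in knockout cortex (log2 fold change -4.16, SE 0.34, limma adjusted p = 3.6e-07). Also among the 12 were Mylk3, a myosin light chain kinase, at -2.67, the Rab effector gene Exph5 at -2.62, the serine protease inhibitor gene Serpinb8 at -2.59, Rgs6, a regulator of G protein signalling, at -2.58, the Ras exchange factor gene Rasgef1c at -2.50, Igfbp6, an insulin-like growth factor binding protein, at -2.47, the cholecystokinin receptor gene Cckbr at -2.43 and the potassium channel gene Kcnh7 at -2.39. All 12, chosen among genes called in knockouts, were also called by limma in controls and were kept.

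The lost differences include genes that were higher in control hippocampus and genes that were higher in control cortex. Ndst4 (chr3:125404029-125728351 in GRCm38), which encodes an enzyme that sulfates heparan sulfate, had 25.7, 24.9, 15.6 and 22.1 CPM in knockout hippocampus and 25.8, 39.2, 20.3 and 13.7 CPM in knockout cortex, and 64.3, 61.2, 56.3 and 57.6 CPM in control hippocampus and 4.73, 3.43, 15.3 and 12.8 CPM in control cortex. The control regions did not overlap and the knockout regions did. Its regional difference was -0.09 in knockouts (limma adjusted p = 0.82) and 2.90 in controls (limma adjusted p = 2.1e-05), and the region by genotype difference was -2.98 (SE 0.48, limma adjusted p = 0.0012). Stac, a calcium channel adaptor, averaged 0.481 CPM in knockout hippocampus and 0.905 CPM in knockout cortex, and 2.83 CPM in control hippocampus and 0.357 CPM in control cortex, with a region by genotype difference of -2.38 (SE 0.40, limma adjusted p = 0.0015). Hpse, the heparanase that cleaves heparan sulfate, averaged 1.61 CPM in knockout hippocampus and 0.832 CPM in knockout cortex, and 0.355 CPM in control hippocampus and 1.82 CPM in control cortex, so its control excess was in cortex (region by genotype difference 2.10, SE 0.35, limma adjusted p = 0.0014).

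Deptor (chr15:55112317-55259273), which encodes an inhibitor of the mTOR kinase and marks deep cortical layers, had 27.05, 29.5, 26.4 and 27.2 CPM in knockout hippocampus and 24.9, 24.1, 25.8 and 25.6 CPM in knockout cortex, and 38.1, 22.7, 28.5 and 24.4 CPM in control hippocampus and 81.3, 86.4, 75.3 and 76.5 CPM in control cortex. Control cortex lay above all other libraries, and the knockout regions, which did not overlap, differed by 0.13 (SE 0.09, limma adjusted p = 0.27), against -1.50 in controls. Its region by genotype difference was 1.63 (SE 0.16, limma adjusted p = 4.6e-06). Control cortex was again the highest group for Prr16, a proline-rich protein gene, with 8.62, 8.50, 6.65 and 8.25 CPM in knockout hippocampus and 7.96, 10.7, 5.13 and 7.42 CPM in knockout cortex, and 6.37, 5.73, 5.96 and 6.34 CPM in control hippocampus and 19.9, 20.9, 26.3 and 23.2 CPM in control cortex. Prr16 had a region by genotype difference of 1.87 (SE 0.23, limma adjusted p = 6.5e-05). Rxfp2, a relaxin family peptide receptor, averaged 0.934 CPM in knockout hippocampus and 1.25 CPM in knockout cortex, and 0.763 CPM in control hippocampus and 4.88 CPM in control cortex. Hsbp1l1, named for its likeness to a heat shock factor binding protein, averaged 1.44 CPM in knockout hippocampus and 0.897 CPM in knockout cortex, and 1.68 CPM in control hippocampus and 4.51 CPM in control cortex. Slitrk6, a synaptic adhesion gene, averaged 3.12 CPM in knockout hippocampus and 2.57 CPM in knockout cortex, and 6.30 CPM in control hippocampus and 1.35 CPM in control cortex. Region by genotype differences were 1.80 for Rxfp2, 1.67 for Hsbp1l1 and -1.71 for Slitrk6. Slitrk6 lost that call in 11 of the 16 fits that left out 1 library (limma adjusted p up to 0.083), and the other 7 of the 8 kept it in all 16.

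Among the reversed differences Lpl had the largest region by genotype difference. Lpl (chr8:68880555-68906932) encodes lipoprotein lipase, which releases fatty acids from lipoproteins. It held 46.2, 55.7, 46.4 and 45.2 CPM in knockout hippocampus and 121, 96.3, 82.3 and 96.2 CPM in knockout cortex, and 137, 123, 104 and 116 CPM in control hippocampus and 35.5, 29.3, 35.9 and 28.02 CPM in control cortex. Neither genotype's regions overlapped: hippocampus was below cortex in knockouts (log2 fold change -1.02, SE 0.11, limma adjusted p = 4.0e-06) and above it in controls (log2 fold change 1.88, SE 0.10, limma adjusted p = 1.3e-08). The region by genotype difference was -2.90 (SE 0.16, limma adjusted p = 9.8e-10). Homer2 (chr7:81600481-81706925), a scaffold of metabotropic glutamate receptors, held 106, 85.3, 80.01 and 88.5 CPM in knockout hippocampus and 155, 174, 192 and 177 CPM in knockout cortex, and 226, 231, 197 and 197 CPM in control hippocampus and 185, 161, 158 and 174 CPM in control cortex. Its 4 knockout hippocampi were the lowest libraries, and the regional difference was -0.95 in knockouts and 0.32 in controls, with a region by genotype difference of -1.28 (SE 0.12, limma adjusted p = 3.3e-06).

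**Figure D1:**
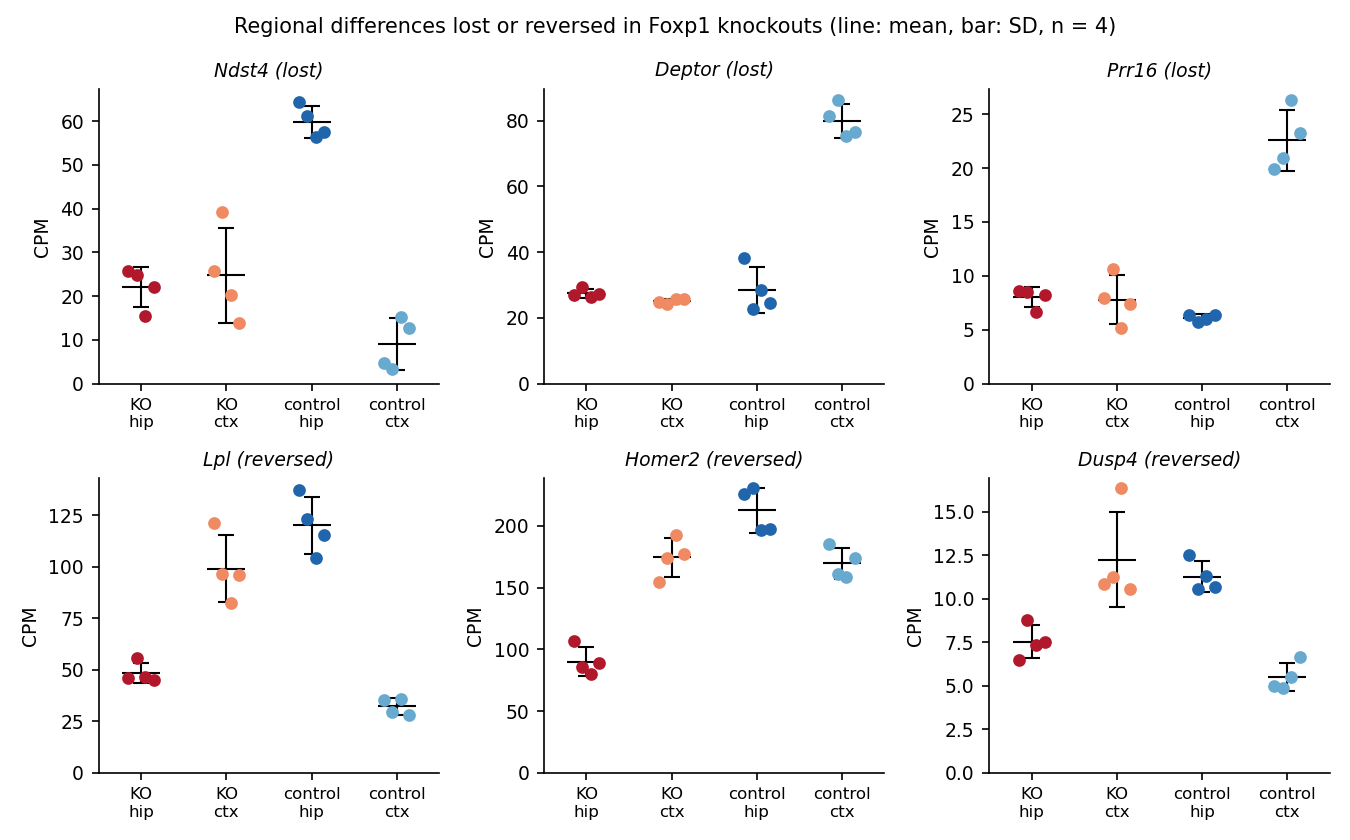
CPM of 3 lost (upper row) and 3 reversed (lower row) genes in each library of knockout hippocampus, knockout cortex, control hippocampus and control cortex; points are libraries, long lines means and bars SD. Deptor averages 27.5 and 25.1 CPM in the knockout regions and 79.9 CPM in control cortex, and Lpl changes its order between genotypes.

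Dusp4, a MAP kinase phosphatase, held 6.50, 8.79, 7.32 and 7.54 CPM in knockout hippocampus and 10.8, 11.3, 16.4 and 10.6 CPM in knockout cortex, and 12.5, 10.6, 11.3 and 10.7 CPM in control hippocampus and 5.01, 4.87, 5.51 and 6.67 CPM in control cortex. The regional difference of Dusp4 was -0.65 in knockouts and 0.98 in controls, without overlap in either. Col11a1, a fibrillar collagen, showed -0.87 in knockouts and 0.53 in controls, the growth factor gene Fgf10 -0.31 in knockouts and 1.12 in controls, and Ptgs2, which encodes cyclooxygenase 2, -0.35 in knockouts and 1.06 in controls. Fbxo32, a ubiquitin ligase subunit, and Cyp39a1, an oxysterol hydroxylase, reversed the other way, with 0.68 and 0.70 in knockouts and -0.63 and -0.58 in controls. Leaving out 1 library ended the knockout call in 7 of the 8 fits for Fgf10, in 6 of the 8 fits for Ptgs2 and in 4 of the 8 fits for Cyp39a1, and the control call of Fbxo32 in 6 of the 8 fits (limma adjusted p up to 0.13, 0.13, 0.13 and 0.081). DESeq2 called neither Fgf10 nor Ptgs2 in knockouts and did not call Fbxo32 in controls, and edgeR called neither Ptgs2 in knockouts nor Fbxo32 in controls. TMM, median-of-ratios and quantile scaling each ended the knockout call of Cyp39a1, and quantile scaling its region by genotype call, so its reversal depends on the scaling. For Cyp39a1 the region by genotype difference also lost its call in 7 of the 16 fits (limma adjusted p up to 0.068), and those of the other 7 kept it in every fit that left out 1 library.

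Differences gained in knockouts were led by Vgll3 (chr16:65815189-65866368), a cofactor of TEAD transcription factors. It held 30.5, 50.7, 18.4 and 33.1 CPM in knockout hippocampus and 2.54, 1.72, 1.22 and 0.982 CPM in knockout cortex, and 2.40, 1.70, 5.89 and 25.2 CPM in control hippocampus and 3.34, 6.97, 4.81 and 5.67 CPM in control cortex. All 4 knockout hippocampi lay above all knockout cortices, and control hippocampus DJ22 stood apart from the other 3 controls of its region. The regional difference was 3.96 in knockouts (limma adjusted p = 7.4e-08) and 0.04 in controls (limma adjusted p = 0.97), and the region by genotype difference was 3.92 (SE 0.72, limma adjusted p = 0.0042). Bace2, an aspartyl protease related to the beta-secretase, averaged 8.28 CPM in knockout hippocampus and 1.48 CPM in knockout cortex, and 3.00 CPM in control hippocampus and 2.55 CPM in control cortex (region by genotype difference 2.06, SE 0.40, limma adjusted p = 0.0063). Fibin, a secreted factor named for zebrafish fin bud initiation, averaged 11.7 CPM in knockout hippocampus and 1.81 CPM in knockout cortex, and 3.82 CPM in control hippocampus and 2.38 CPM in control cortex (region by genotype difference 1.83, SE 0.36, limma adjusted p = 0.0064).

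Sorcs3 (chr19:48206025-48805505), a sorting receptor of the sortilin family, held 54.3, 49.3, 41.8 and 54.00 CPM in knockout hippocampus and 128, 114, 115 and 119 CPM in knockout cortex, and 66.5, 79.9, 78.7 and 76.1 CPM in control hippocampus and 65.8, 67.8, 67.7 and 67.4 CPM in control cortex. The regions overlapped in controls only, and the knockout difference was -1.25 with a region by genotype difference of -1.41 (SE 0.11, limma adjusted p = 2.5e-07). Qrfpr, the receptor of a hypothalamic RFamide peptide, was likewise high in knockout cortex, with 1.89, 1.44, 1.83 and 2.42 CPM in knockout hippocampus and 8.85, 8.70, 8.66 and 10.3 CPM in knockout cortex, against means of 2.28 CPM in control hippocampus and 2.19 CPM in control cortex (region by genotype difference -2.06, SE 0.29, limma adjusted p = 2.5e-04). Postn, the matrix protein periostin, Scnn1a, an epithelial sodium channel subunit, and Loxl2, a lysyl oxidase that crosslinks collagen, were higher in knockout hippocampus by 0.87, 1.57 and 1.64, with control differences of -0.49, 0.18 and 0.42. Their region by genotype differences were 1.37, 1.39 and 1.22. That call was lost in 11 of the 16 fits without 1 library for Scnn1a and in 13 of the 16 fits for Loxl2 (limma adjusted p up to 0.094 and 0.10), and edgeR did not call it for Loxl2. The call was kept in all 16 fits for Vgll3, Qrfpr, Bace2, Fibin, Sorcs3 and Postn.

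**Figure D2:**
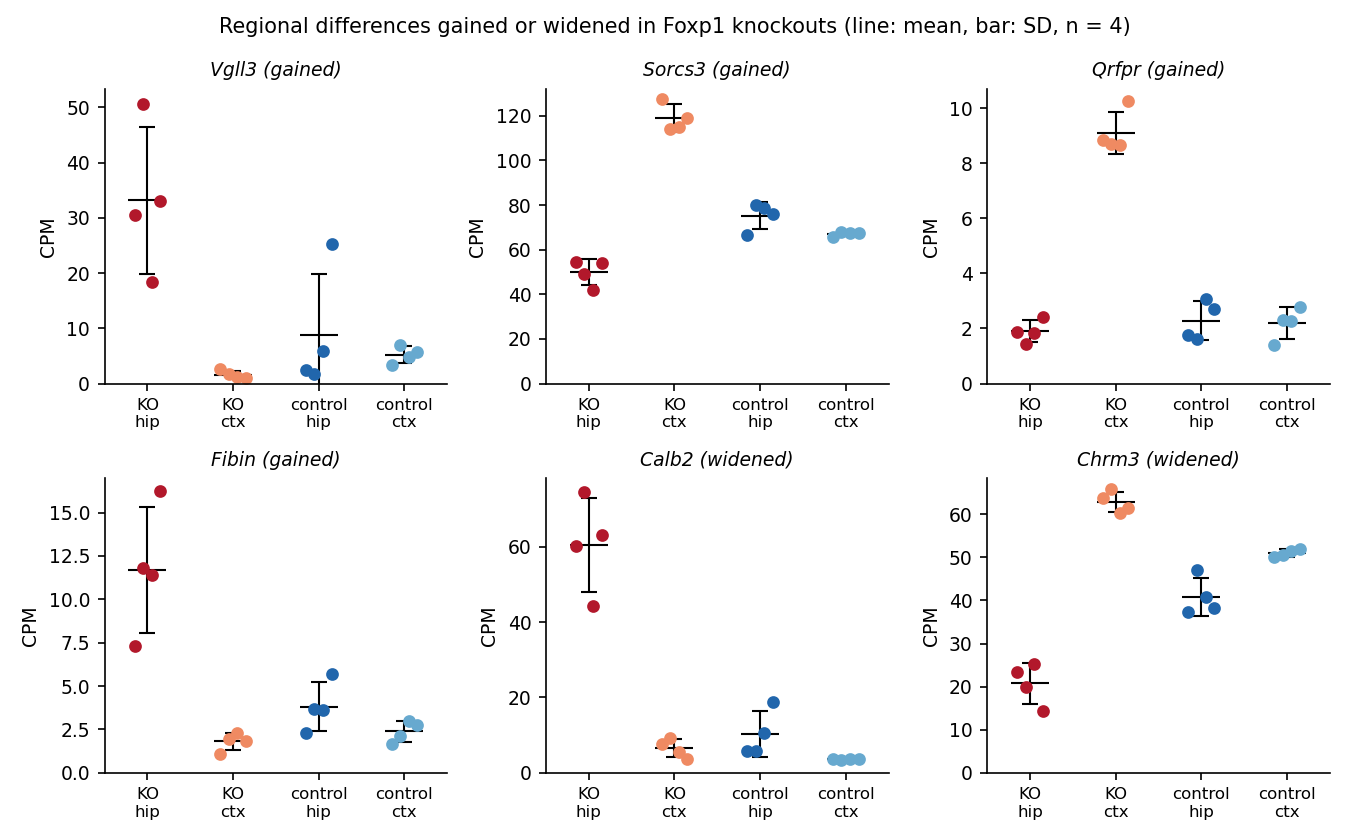
CPM of 4 gained and 2 widened (Calb2 and Chrm3) genes in each library of knockout hippocampus, knockout cortex, control hippocampus and control cortex; points are libraries, long lines means and bars SD. Sorcs3 averages 49.9 and 119 CPM in the knockout regions and 75.3 and 67.2 CPM in the control regions.

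The widened differences were led by Calb2, which encodes the calcium buffer calretinin. It held 60.1, 74.6, 44.3 and 63.1 CPM in knockout hippocampus and 7.74, 9.19, 5.61 and 3.60 CPM in knockout cortex, and 5.74, 5.91, 10.5 and 18.8 CPM in control hippocampus and 3.62, 3.32, 3.67 and 3.78 CPM in control cortex. Every hippocampus exceeded every cortex in knockouts, and the difference was 3.17 in knockouts and 1.23 in controls (region by genotype difference 1.93, SE 0.41, limma adjusted p = 0.011). With edgeR the region by genotype difference of Calb2 was not called. Cd36, a fatty acid uptake receptor, averaged 12.5 CPM in knockout hippocampus and 2.28 CPM in knockout cortex, and 1.97 CPM in control hippocampus and 0.857 CPM in control cortex (region by genotype difference 1.33, SE 0.26, limma adjusted p = 0.0068), and neither edgeR nor DESeq2 called that difference. Adamtsl1, an extracellular matrix protein gene, had regional differences of 2.13 in knockouts and 0.94 in controls. Chrm3, the M3 muscarinic acetylcholine receptor, held 23.4, 19.9, 25.4 and 14.3 CPM in knockout hippocampus and 63.8, 65.8, 60.4 and 61.5 CPM in knockout cortex, against means of 40.9 CPM in control hippocampus and 51.01 CPM in control cortex (region by genotype difference -1.29, SE 0.17, limma adjusted p = 1.8e-04). Hippocampus was below cortex in both genotypes for Chrm3, for Fst, which encodes the activin antagonist follistatin (-2.31 in knockouts, -1.09 in controls), and for the synaptic pentraxin gene Nptx2 (-1.80 in knockouts and -0.85 in controls). Their differences between genotypes were 1.18 for Adamtsl1, -1.21 for Fst and -0.95 for Nptx2. Leaving out 1 library ended that call in 8 of the 16 fits for Adamtsl1 and in 8 of the 16 fits for Fst (limma adjusted p up to 0.062 and 0.078).

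Narrowed differences were led by Slc9a4, a sodium/proton exchanger of the plasma membrane. It held 2.95, 5.62, 4.91 and 6.69 CPM in knockout hippocampus and 0.774, 0.613, 1.10 and 0.982 CPM in knockout cortex, and 19.1, 31.2, 31.6 and 31.7 CPM in control hippocampus and 0.278, 0.553, 0.707 and 0.445 CPM in control cortex, so hippocampus exceeded cortex in both genotypes, by 1.98 in knockouts and 4.85 in controls. Its region by genotype difference was -2.86 (SE 0.32, limma adjusted p = 3.0e-05). Slc9a2, a related exchanger, differed by 1.42 in knockouts and 3.58 in controls (region by genotype difference -2.16, SE 0.32, limma adjusted p = 4.4e-04). On the cortical side the differences of Olfr78, an olfactory receptor gene, Myl4, a myosin light chain, Dkkl1, related to the Dickkopf family, and Ddit4l, a stress-induced inhibitor of mTOR signalling, were -0.76, -0.95, -1.58 and -0.78 in knockouts. The control differences were -2.95, -3.12, -3.17 and -2.25. Region by genotype differences came to 2.19 for Olfr78, 2.18 for Myl4, 1.58 for Dkkl1 and 1.47 for Ddit4l. The remaining knockout difference of Olfr78 lost its call in 7 of the 8 fits without 1 library (limma adjusted p up to 0.13) and was not called by DESeq2. Dkkl1 held under 1 CPM in all 4 knockout hippocampi and all 4 control hippocampi, and its region by genotype difference was called neither by edgeR nor by DESeq2.

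The promoters of these genes, from 250 bases before to 50 after a start, were looked at for forkhead core motifs, and 18 of the 36 named genes that changed class had 20 promoters in the RefSeq table (GRCm38.p6). The motif TGTTTAC was searched on both strands. So was the variant TATTTAT, whose matches can overlap in a run of repeats. The third motif, also on both strands, was TATTTGT. At least 1 of the 3 was in 11.8% of all 32851 promoters, 7.01% of the 13731 promoters of tested genes, and 6.06% of the 396 promoters of genes with a called region by genotype difference. By class it was in 7.72% of the 3302 promoters of kept, 5.98% of the 117 of lost, 6.17% of the 81 of gained, 4.62% of the 130 of narrowed and 12.8% of the 47 of reversed genes, which is 6 promoters, and in none of the 19 of widened genes. A match is a description of the sequence and not a site. Of the 20 promoters, the 3 with a match are shown, with the motif in capitals. They are Fgf10 at chr13:118714449-118714748, plus strand, Slitrk6 at chr14:110755100-110755399, minus strand, and the second of 2 Postn promoters at chr3:54360857-54361156, plus strand.
Fgf10: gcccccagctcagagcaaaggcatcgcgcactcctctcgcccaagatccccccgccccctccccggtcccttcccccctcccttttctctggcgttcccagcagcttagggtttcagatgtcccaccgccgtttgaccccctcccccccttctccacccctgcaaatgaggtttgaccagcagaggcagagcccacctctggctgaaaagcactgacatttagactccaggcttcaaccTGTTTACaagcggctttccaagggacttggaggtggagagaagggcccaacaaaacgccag
Slitrk6: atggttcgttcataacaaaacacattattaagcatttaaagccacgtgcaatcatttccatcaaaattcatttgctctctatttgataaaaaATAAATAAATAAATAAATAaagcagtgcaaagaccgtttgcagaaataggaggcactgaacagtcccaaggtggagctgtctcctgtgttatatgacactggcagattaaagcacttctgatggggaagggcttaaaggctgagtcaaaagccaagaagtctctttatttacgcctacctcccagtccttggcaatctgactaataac
Postn: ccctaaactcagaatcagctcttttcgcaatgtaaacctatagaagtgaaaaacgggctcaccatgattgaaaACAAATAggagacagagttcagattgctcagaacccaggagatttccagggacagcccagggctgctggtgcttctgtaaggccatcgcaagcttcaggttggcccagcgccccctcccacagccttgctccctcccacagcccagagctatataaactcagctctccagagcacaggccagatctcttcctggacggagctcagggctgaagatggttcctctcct

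Among hippocampal field markers, those of CA1 were split between the regions in knockouts. Of 10 CA1 markers, 4 were higher and 3 lower in knockout hippocampus (all genes: 20.5% and 14.1%), with a median of -0.02 that ran from -0.12 to 0.11 over the alternatives, and 6 were higher and 2 lower in control hippocampus, with a median of 0.76. The median over all genes tested in both genotypes was 0.04 in knockouts and 0.02 in controls. The 10 markers summed to between 701 and 748 CPM in knockout hippocampus and 819 to 908 CPM in knockout cortex, and to between 777 and 896 CPM in control hippocampus and 668 to 691 CPM in control cortex. Beside Ndst4, the region by genotype difference was called for Man1a, a mannosidase of glycoprotein processing (0.43 in knockouts and 1.05 in controls, region by genotype difference -0.61, SE 0.10, limma adjusted p = 0.0014), for Fibcd1, a receptor that binds acetylated sugars (2.21 in knockouts and 3.62 in controls, region by genotype difference -1.41, SE 0.34, limma adjusted p = 0.026), and for the wolframin gene Wfs1. Wfs1 was lost, with means of 51.1 and 58.3 CPM in knockout hippocampus and cortex, against 47.9 and 25.5 CPM in control hippocampus and cortex (region by genotype difference -1.14, SE 0.30, limma adjusted p = 0.048). The region by genotype difference of Wfs1 was not called by edgeR. Leaving out 1 library ended the region by genotype call in 13 of the 16 fits for Wfs1 and in 7 of the 16 fits for Fibcd1 (limma adjusted p up to 0.11 and 0.071).

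CA3 markers were more often higher than lower in hippocampus. In knockouts 6 of 10 CA3 markers were higher and 1 lower (all genes: 20.5% and 14.1%), against 8 and 1 in controls. For CA2 the share called in knockouts was near that of all genes, with 3 of 8 markers higher (37.5%, against 34.6%), and over the alternatives 2 to 4 were higher and 0 to 2 lower. In controls 6 of the 8 were higher and 1 lower. Npy2r, a neuropeptide Y receptor, was narrowed, with means of 79.8 and 6.14 CPM in knockout hippocampus and cortex, and 99.1 and 3.42 CPM in control hippocampus and cortex (region by genotype difference -1.13, SE 0.26, limma adjusted p = 0.020). That call of Npy2r was not made by edgeR. Cpne4, a calcium-dependent membrane-binding protein, had a difference of 0.30 in knockouts and 1.26 in controls (region by genotype difference -0.95, SE 0.12, limma adjusted p = 8.3e-05). The cell adhesion gene Nectin3 and the G protein regulator Rgs14 of CA2 were lost, with knockout differences of -0.02 and -0.33 and control differences of 0.65 and 0.91. Their region by genotype differences were -0.66 (SE 0.13, limma adjusted p = 0.0072) and -1.23 (SE 0.23, limma adjusted p = 0.0050).

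Of 14 dentate granule markers 7 were kept (23.5% of all genes). In knockouts 7 were higher and 3 lower in hippocampus (all genes: 20.5% and 14.1%), against 9 and 1 in controls. Their medians were 0.76 in knockouts and 1.15 in controls. Lct, which encodes lactase, averaged 11.5 CPM in knockout hippocampus and 0.676 CPM in knockout cortex, and 24.7 CPM in control hippocampus and 0.942 CPM in control cortex. Lrrtm4, a postsynaptic adhesion protein of granule cells, was reversed, at 63.5 and 92.5 CPM in knockout hippocampus and cortex, and 68.6 and 51.03 CPM in control hippocampus and cortex (region by genotype difference -0.96, SE 0.13, limma adjusted p = 2.3e-04). Stxbp6, a SNARE-binding protein, was gained, with -0.46 in knockouts and 0.07 in controls (region by genotype difference -0.53, SE 0.10, limma adjusted p = 0.0045). Another marker of this list, not named here, was lost and changed the other way. It stood at -0.68 in controls, with a region by genotype difference of 0.72 (limma adjusted p = 0.040). Leaving out 1 library ended that call in 11 of the 16 fits.

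Upper-layer markers differed between the regions in both genotypes. All 10 upper-layer markers were called in both genotypes, 2 higher and 8 lower in hippocampus (all genes in knockouts: 20.5% and 14.1%). All 10 were kept (23.5% of all genes), with medians of -1.51 in knockouts and -1.64 in controls. For none was the region by genotype difference called by limma, edgeR or DESeq2. At an unadjusted limma p under 0.05 were 4 of the 10 (all genes: 1915 of 13881). The 5 layer 4 markers had medians of -0.40 in knockouts and -1.69 in controls. The region by genotype difference was called for 3 of them (2.72% of all genes). Rorb, the orphan nuclear receptor that marks layer 4, was narrowed, with means of 94.9 and 125 CPM in knockout hippocampus and cortex, and 74.2 and 238 CPM in control hippocampus and cortex (region by genotype difference 1.29, SE 0.16, limma adjusted p = 6.5e-05). Scnn1a was gained and Whrn, which encodes the scaffold whirlin, was reversed (0.53 in knockouts, -0.41 in controls, region by genotype difference 0.93, SE 0.20, limma adjusted p = 0.013). The control call of Whrn was lost in 5 of the 8 fits without 1 library (limma adjusted p up to 0.11).

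Of 16 deep-layer markers, 6 were higher and 6 lower in knockout hippocampus (all genes: 20.5% and 14.1%), against 4 and 7 in controls. Tbr1, a T-box factor of layer 6 neurons, was narrowed, with -1.49 in knockouts and -2.15 in controls (region by genotype difference 0.66, SE 0.16, limma adjusted p = 0.025), and lost that call in 6 of the 16 fits without 1 library (limma adjusted p up to 0.057). Etv1, an ETS factor of layer 5, was widened, with 1.34 in knockouts and 0.42 in controls (region by genotype difference 0.93, SE 0.17, limma adjusted p = 0.0047). The control call of Etv1 was lost in 3 of the 8 fits (limma adjusted p up to 0.076). Crym, the thyroid hormone-binding crystallin mu, was kept, with 2.06 in knockouts and 1.93 in controls.

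Of 34 pallial transcription factors, 12 were higher and 12 lower in knockout hippocampus (all genes: 20.5% and 14.1%). Among the 34, 17 were kept, 5 narrowed and 1 widened (all genes: 23.5%, 0.947% and 0.197%). Prox1, the homeobox factor of granule cells, held 193, 229, 246 and 238 CPM in knockout hippocampus and 28.2, 28.2, 28.8 and 28.4 CPM in knockout cortex (log2 fold change 2.97, SE 0.08, limma adjusted p = 9.1e-12). The regions did not overlap, and the control difference was 2.94. Zbtb20, a zinc finger repressor of hippocampal neurons, differed by 2.29 in knockouts and 2.25 in controls. Beside Rorb and Tbr1, Bhlhe22, a basic helix-loop-helix factor of area identity (0.40 in knockouts, 1.30 in controls), the LIM-only gene Lmo4 (-0.58 in knockouts and -1.14 in controls) and the zinc finger gene Tshz3 (-1.59 in knockouts and -2.34 in controls) were narrowed, with region by genotype differences of -0.90, 0.56 and 0.75. The knockout call of Bhlhe22 was lost in 5 of the 8 fits and the region by genotype call of Tshz3 in 10 of the 16 fits without 1 library (limma adjusted p up to 0.079 and 0.11). TMM and median-of-ratios scaling and a robust limma fit also each ended the knockout call of Bhlhe22, so its class depends on the processing. Among 20 forkhead genes tested, 5 were higher and 2 lower in knockouts (35.0% called, against 34.6% of all genes). Their region by genotype difference was called for none by limma, edgeR or DESeq2. At an unadjusted limma p under 0.05 there were 4 of the 20 (all genes: 1915 of 13881). Foxo1, an insulin-regulated forkhead factor, differed by 1.36 in knockouts and 1.47 in controls.

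**Figure D3:**
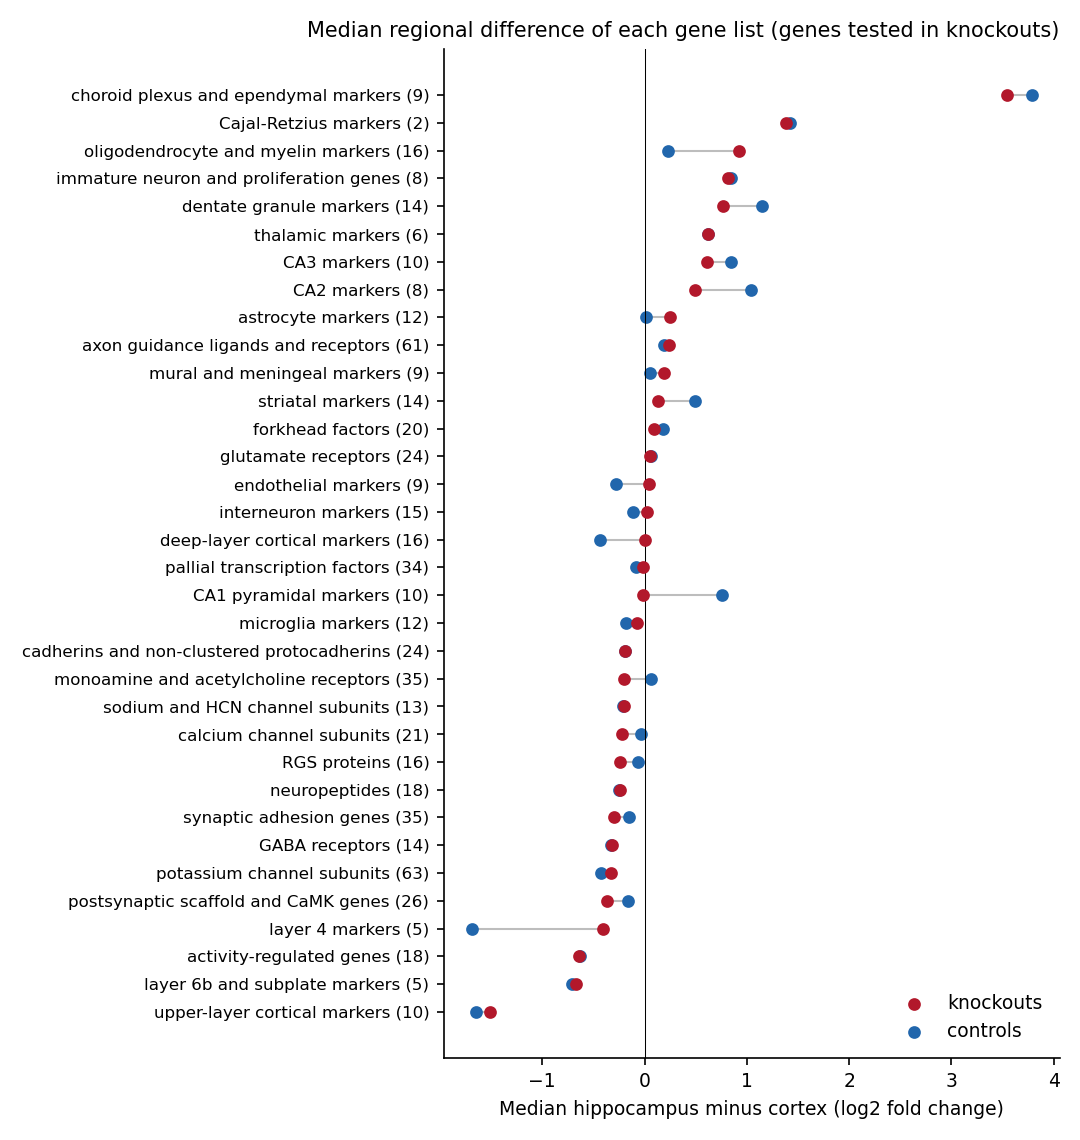
Median regional difference (hippocampus minus cortex, log2 fold change) of 34 gene lists in knockouts (red) and controls (blue), with the number of genes tested in knockouts after each name. CA1 markers stand at -0.02 in knockouts and 0.76 in controls, layer 4 markers at -0.40 in knockouts and -1.69 in controls, and myelin markers at 0.93 in knockouts and 0.23 in controls.

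Interneuron markers were split between the regions, with 5 of 15 higher and 6 lower in knockout hippocampus (all genes: 20.5% and 14.1%), and 5 and 5 in controls. Vip, the peptide of a cortical interneuron class, was kept at -1.96 in knockouts and -1.97 in controls. Pvalb, which encodes parvalbumin of fast-spiking interneurons, was narrowed, with means of 13.8 and 19.5 CPM in knockout hippocampus and cortex, and 16.2 and 42.3 CPM in control hippocampus and cortex (region by genotype difference 0.88, SE 0.17, limma adjusted p = 0.0066). Nos1, neuronal nitric oxide synthase, was narrowed on the hippocampal side, with 1.10 in knockouts and 1.87 in controls (region by genotype difference -0.77, SE 0.17, limma adjusted p = 0.015). Npy, neuropeptide Y, was narrowed too, with -1.04 in knockouts and -1.60 in controls (region by genotype difference 0.56, SE 0.14, limma adjusted p = 0.032), a call lost in 7 of the 16 fits without 1 library (limma adjusted p up to 0.071).

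Myelin genes were higher in hippocampus than in cortex of knockouts. Of 16 oligodendrocyte and myelin markers, 14 were called higher in knockout hippocampus (20.5% of all genes were), with a median of 0.93. None was called in controls by limma, edgeR or DESeq2, and the control median was 0.23. In controls 2 of the 16 were at an unadjusted limma p under 0.05 (all genes: 6394 of 13823). Mobp, a protein of compact myelin, averaged 1744 CPM in knockout hippocampus and 725 CPM in knockout cortex, and 1757 CPM in control hippocampus and 1305 CPM in control cortex. Aspa, an enzyme of oligodendrocyte acetate supply, averaged 29.8 CPM in knockout hippocampus and 10.4 CPM in knockout cortex, and 28.1 CPM in control hippocampus and 20.3 CPM in control cortex, and the myelin protein gene Ermn 209 CPM in knockout hippocampus and 74.5 CPM in knockout cortex, and 201 CPM in control hippocampus and 128 CPM in control cortex. The summed level of the list was 8089.7, 6770.1, 9754 and 8944 CPM in knockout hippocampus, 4324, 4099, 3269.5 and 4136 CPM in knockout cortex, 14203, 7467, 6339 and 5438 CPM in control hippocampus and 6735, 6419, 7443 and 5455 CPM in control cortex. The knockout regions did not overlap and the control regions did. None of the 16 had a called region by genotype difference with limma or edgeR and 1 had with DESeq2. At an unadjusted limma p under 0.05 there were 13 (all genes: 1915 of 13881), and the median of that difference was 0.76. Control hippocampus DJ17 held the highest sum of all libraries. Without that library 12 of the 16 had a called region by genotype difference, with a median of 1.06, and the control median was -0.02. With the mean log2 level of the list as a covariate, chosen after seeing the data, the region by genotype difference was called for 270 genes, 190 of them among the 378. Of the 83 genes named here with a called region by genotype difference, 61 were called with that covariate. The 22 not called were Adamtsl1, Bhlhe22, Cntnap2, Cyp39a1, Fbxo32, Fibcd1, Fst, Kcnj10, Loxl2, Lrfn5, Lrrtm1, Nos1, Npy, Npy2r, Pcdh19, Pcdh8, Postn, Pvalb, Scnn1a, Tbr1, Tshz3 and Wfs1, with limma adjusted p between 0.051 and 0.24.

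**Figure D4:**
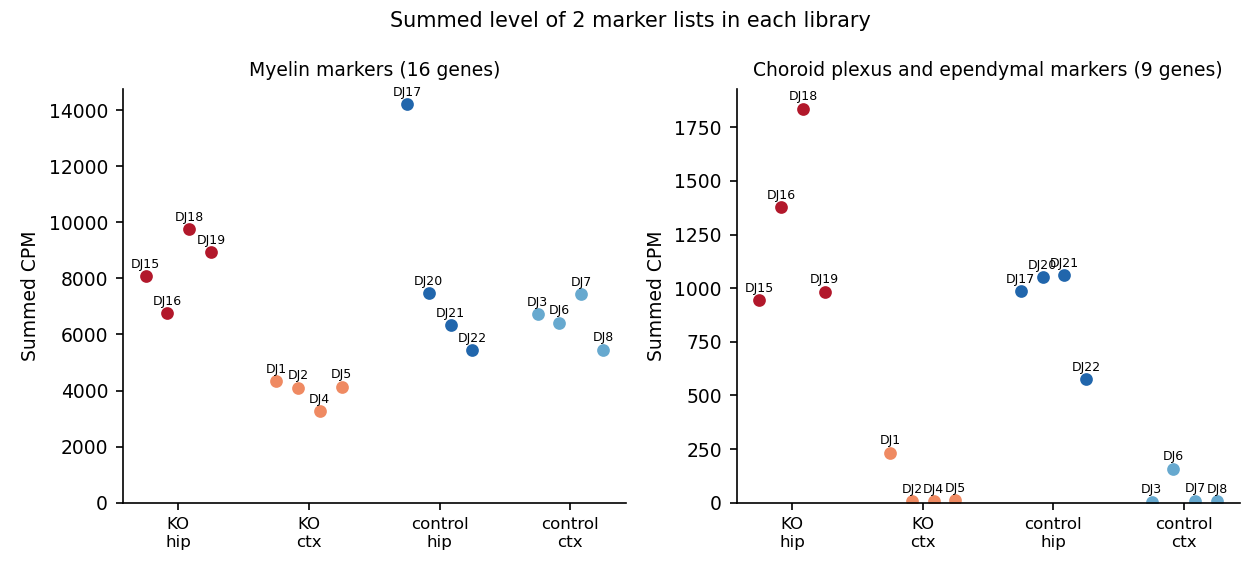
Summed CPM of 16 oligodendrocyte and myelin markers (left) and 9 choroid plexus and ependymal markers (right) in each library, named by its DJ number. Control hippocampus DJ17 stands at 14203 CPM of myelin markers, and knockout cortex DJ1 and control cortex DJ6 hold the highest choroid plexus sums among cortices.

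Of 12 astrocyte markers 5 were higher in knockout hippocampus (41.7% called, against 34.6% of all genes), and 5 were kept (23.5% of all genes). Gfap, the astrocyte intermediate filament, differed by 2.01 in knockouts and 1.71 in controls. No microglial marker of 12 and no endothelial marker of 9 was called in knockouts by limma, edgeR or DESeq2. At an unadjusted limma p under 0.05 were 2 and 0 (all genes: 6035 of 13935). In controls limma called 1 of the 12 and 3 of the 9 lower in hippocampus (16.9% of all genes). No marker of either list had a called region by genotype difference. Flt1, an endothelial receptor of vascular endothelial growth factor, averaged 122 CPM in knockout hippocampus and 118 CPM in knockout cortex. Its control difference was -0.27 (limma adjusted p = 0.020), a call lost in 2 of the 8 fits without 1 library. Of 14 markers of the striatum, 4 were higher and 1 lower in knockout hippocampus (35.7% called, against 34.6% of all genes), and they summed to between 590 and 1268 CPM there and 753 to 1147 CPM in knockout cortex. In controls the sums were 227 to 1144 CPM in hippocampus and 299 to 654 CPM in cortex, and the part of striatal tissue in any gene's difference was not tested.

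Of the smaller lists, 3 of 9 mural and meningeal markers were higher in knockout hippocampus (33.3% called, against 34.6% of all genes), among them Slc13a4, a sulfate transporter of the meninges, at 1.76 in knockouts and 1.33 in controls. Of 6 thalamic markers 3 were higher and 1 lower (all genes: 20.5% and 14.1%). The lower one, Slc17a6, a vesicular glutamate transporter, had means of 33.3 and 64.8 CPM in knockout hippocampus and cortex, and 45.9 and 45.6 CPM in control hippocampus and cortex. Neither for Slc17a6 nor for another thalamic marker was the region by genotype difference called, so its difference is not counted as gained. Both Cajal-Retzius markers tested, the p53 family gene Trp73 and Ndnf, a secreted neuron-derived factor, were higher in hippocampus and kept. Of 5 layer 6b and subplate markers 3 were lower (14.1% of all genes). Cplx3, a complexin of subplate neurons, differed by -1.60 in knockouts and -2.01 in controls. Of 8 immature neuron and proliferation genes 6 were higher (20.5% of all genes). Igfbpl1, a marker of immature granule cells, differed by 1.52 in knockouts and 2.19 in controls.

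Potassium channel genes that passed were more often lower in knockout hippocampus. Of 63 tested, 14 were higher and 31 lower (all genes: 20.5% and 14.1%), against 13 and 37 of 64 in controls, and 35 were kept (23.5% of all genes). Kcnab3, an auxiliary subunit of voltage-gated potassium channels, held 14.8, 10.9, 9.23 and 11.2 CPM in knockout hippocampus and 16.9, 18.5, 17.6 and 16.9 CPM in knockout cortex, and 12.9, 12.00, 14.3 and 15.2 CPM in control hippocampus and 42.7, 60.5, 54.1 and 55.5 CPM in control cortex. Cortex exceeded hippocampus in both genotypes without overlap, and control cortex stood far above knockout cortex. Its regional difference was -0.60 in knockouts and -1.92 in controls (region by genotype difference 1.33, SE 0.18, limma adjusted p = 1.9e-04). Kcns1, a modifying subunit, and Kcna2, a delayed rectifier subunit of axons, were narrowed in the same direction, with region by genotype differences of 1.17 (SE 0.27, limma adjusted p = 0.019) and 0.42 (SE 0.09, limma adjusted p = 0.010). Kcnd2, which carries the A-type current of dendrites, was lost, with -0.14 in knockouts and 0.51 in controls (region by genotype difference -0.66, SE 0.10, limma adjusted p = 6.8e-04). Kcnj10, the inward rectifier of astrocytes, was gained, with 0.35 in knockouts and -0.24 in controls (region by genotype difference 0.59, SE 0.12, limma adjusted p = 0.011).

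Of 13 sodium and HCN channel genes 2 were higher and 5 lower in knockout hippocampus (all genes: 20.5% and 14.1%). Scn3b, an auxiliary sodium channel subunit, held 258, 281, 332 and 298 CPM in knockout hippocampus and 171, 171, 207 and 184 CPM in knockout cortex, and 296, 391, 333 and 351 CPM in control hippocampus and 108, 106, 117 and 99.3 CPM in control cortex. Hippocampus was above cortex in every library of each genotype, and cortex was higher in knockouts than in controls in every library. The regional difference of Scn3b was 0.67 in knockouts and 1.66 in controls (region by genotype difference -0.99, SE 0.12, limma adjusted p = 8.1e-05). Scn1a, the sodium channel of fast-spiking interneurons, was narrowed on the cortical side, with -0.27 in knockouts and -0.90 in controls (region by genotype difference 0.63, SE 0.10, limma adjusted p = 7.0e-04). Scn9a, a sodium channel best known from sensory neurons, was kept at 2.15 in knockouts and 1.70 in controls. Of 21 calcium channel genes 6 were higher and 8 lower (all genes: 20.5% and 14.1%), and 11 were kept (23.5% of all genes). Cacna1i, a T-type channel, was lost, with -0.14 in knockouts and -0.82 in controls (region by genotype difference 0.68, SE 0.14, limma adjusted p = 0.010), and Cacna1e, the R-type channel, was narrowed (0.19 in knockouts and 0.71 in controls, region by genotype difference -0.52, SE 0.08, limma adjusted p = 0.0010). The knockout call of Cacna1e was lost in 5 of the 8 fits without 1 library (limma adjusted p up to 0.072), and neither edgeR nor DESeq2 made it.

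Of 24 glutamate receptor genes 8 were higher and 8 lower in knockout hippocampus (all genes: 20.5% and 14.1%). Of these 24, 10 were kept (23.5% of all genes), among them Gria1, an AMPA receptor subunit, at 1.35 in knockouts and 1.70 in controls. Grm5, a group I metabotropic receptor, was narrowed, with 0.47 in knockouts and 0.85 in controls (region by genotype difference -0.38, SE 0.08, limma adjusted p = 0.011). Of 14 GABA receptor genes 4 were higher and 9 lower (all genes: 20.5% and 14.1%), and 12 were kept (23.5% of all genes). Gabra5, the subunit of extrasynaptic receptors in hippocampus, differed by 1.97 in knockouts and 1.72 in controls.

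Of 35 monoamine and acetylcholine receptor genes 9 were higher and 8 lower in knockouts (all genes: 20.5% and 14.1%), against 10 and 14 of 36 in controls. Htr2a, the serotonin receptor on which psychedelics act, held 17.8, 14.1, 17.96 and 11.8 CPM in knockout hippocampus and 14.05, 20.5, 20.1 and 21.2 CPM in knockout cortex, and 8.35, 6.45, 11.3 and 10.5 CPM in control hippocampus and 21.6, 27.8, 34.2 and 32.6 CPM in control cortex. The knockout regions overlapped and the control regions did not, with differences of -0.29 in knockouts and -1.62 in controls (region by genotype difference 1.33, SE 0.26, limma adjusted p = 0.0059). Chrna4, a nicotinic receptor subunit, was lost too, with -0.24 in knockouts and -1.17 in controls (region by genotype difference 0.92, SE 0.17, limma adjusted p = 0.0047). Htr4, a serotonin receptor that raises cyclic AMP, was narrowed, with means of 13.5 and 1.62 CPM in knockout hippocampus and cortex, and 21.6 and 0.877 CPM in control hippocampus and cortex (region by genotype difference -1.31, SE 0.25, limma adjusted p = 0.0063). Of 18 neuropeptide genes 4 were higher and 7 lower (all genes: 20.5% and 14.1%). Nts, which encodes neurotensin, was kept at 1.84 in knockouts and 2.44 in controls.

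Axon guidance genes were more often higher than lower in knockout hippocampus. Of 61, 28 were higher and 15 lower (all genes: 20.5% and 14.1%), and 31 were kept (23.5% of all genes). A region by genotype difference was called for 4 of the 61 (2.72% of all genes). Slit1, a repulsive ligand, was kept at 2.05 in knockouts and 2.14 in controls, and the ligand genes Efna5 and Sema3a were kept on the cortical side at -2.05 and -2.07 in knockouts and -2.05 and -1.68 in controls. Sema3e, a semaphorin, and Epha6, an ephrin receptor, were narrowed on the hippocampal side. Sema3e averaged 99.6 CPM in knockout hippocampus and 64.1 CPM in knockout cortex, and 208 CPM in control hippocampus and 72.7 CPM in control cortex (region by genotype difference -0.88, SE 0.12, limma adjusted p = 1.8e-04), and Epha6 62.1 CPM in knockout hippocampus and 34.8 CPM in knockout cortex, and 97.8 CPM in control hippocampus and 27.2 CPM in control cortex (region by genotype difference -0.99, SE 0.17, limma adjusted p = 0.0021). The netrin receptor gene Unc5c was widened, with 1.49 in knockouts and 0.92 in controls (region by genotype difference 0.57, SE 0.13, limma adjusted p = 0.015), and the ephrin receptor gene Epha5 lost, with 0.16 in knockouts and 0.58 in controls (region by genotype difference -0.43, SE 0.09, limma adjusted p = 0.014).

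Of 24 cadherins and non-clustered protocadherins, which join cells by homophilic binding, 8 were higher and 11 lower in knockout hippocampus (all genes: 20.5% and 14.1%). A region by genotype difference was called for 6 of the 24 (2.72% of all genes). Pcdh7 held 350.4, 419.6, 332 and 356 CPM in knockout hippocampus and 517, 545, 538 and 541 CPM in knockout cortex, and 277, 232, 361 and 331 CPM in control hippocampus and 715, 844, 785 and 832 CPM in control cortex. The regions did not overlap in either genotype, and the difference was -0.56 in knockouts and -1.42 in controls (region by genotype difference 0.86, SE 0.14, limma adjusted p = 0.0015). Pcdh19, Pcdh8 and Cdh8 were narrowed on the hippocampal side, with 1.05, 0.41 and 0.27 in knockouts and 1.70, 1.13 and 0.77 in controls. The knockout call of Cdh8 was lost in 5 of the 8 fits without 1 library (limma adjusted p up to 0.072), and edgeR and DESeq2 did not make it. Cdh6, a cadherin of upper layers, was kept at -2.09 in knockouts and -1.71 in controls.

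Synaptic adhesion and scaffold genes that passed were mostly lower in knockout hippocampus. Of 35 synaptic adhesion genes 4 were higher and 20 lower (all genes: 20.5% and 14.1%), against 9 and 15 in controls, with medians of -0.29 in knockouts and -0.15 in controls. Their regional difference differed between genotypes for 8 of 35 (2.72% of all genes). Nrxn3, a presynaptic neurexin, and Lrfn5, a postsynaptic leucine-rich protein, were gained with cortex higher, at -0.29 and -0.61 in knockouts and 0.08 and -0.17 in controls. Their region by genotype differences were -0.37 (SE 0.08, limma adjusted p = 0.0080) and -0.44 (SE 0.09, limma adjusted p = 0.0064). Slitrk2 was gained with hippocampus higher, at 0.49 in knockouts and 0.03 in controls (region by genotype difference 0.46, SE 0.08, limma adjusted p = 0.0037). Lrrtm1, a postsynaptic partner of neurexins, was narrowed and Cntnap2, a neurexin-like protein of axons, lost, with region by genotype differences of -0.62 (SE 0.13, limma adjusted p = 0.010) and -0.37 (SE 0.08, limma adjusted p = 0.016). Of 26 postsynaptic scaffold and CaMK genes 3 were higher and 18 lower in knockouts (all genes: 20.5% and 14.1%), against 5 and 13 in controls. Camk2b, a subunit of the calcium/calmodulin-dependent kinase, was narrowed, with 0.39 in knockouts and 0.74 in controls (region by genotype difference -0.35, SE 0.07, limma adjusted p = 0.011), and Homer3, a scaffold related to Homer2, was kept at 2.76 in knockouts and 2.71 in controls.

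Of 16 RGS genes, whose products speed the switching-off of G proteins, 1 was higher and 7 lower in knockout hippocampus (all genes: 20.5% and 14.1%), and Rgs4 was kept at -1.59 in knockouts and -1.81 in controls. Of 18 activity-regulated genes 1 was higher and 8 lower (all genes: 20.5% and 14.1%), against 4 and 8 in controls. Bdnf, the brain-derived neurotrophic factor gene, held 52.3, 68.6, 61.9 and 55.4 CPM in knockout hippocampus and 75.4, 68.99, 87.5 and 83.4 CPM in knockout cortex, and 83.5, 77.3, 59.98 and 62.7 CPM in control hippocampus and 55.5, 54.2, 49.04 and 57.6 CPM in control cortex. It was reversed without overlap in either genotype, with hippocampus below cortex in knockouts (log2 fold change -0.40, SE 0.10, limma adjusted p = 0.0044) and above it in controls (log2 fold change 0.38, SE 0.10, limma adjusted p = 0.010), and a region by genotype difference of -0.78 (SE 0.15, limma adjusted p = 0.0059). Egr1, an immediate early transcription factor, was kept on the cortical side at -1.42 in knockouts and -1.50 in controls.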

How the data were processed

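Hippocampal and neocortical poly(A) RNA of 16 libraries was sequenced. STAR, HTSeq and edgeR and the build mm10 (GRCm38) are named in the submitters' processing notes, and no source used here says whether counting used strand. The authors deposited CPM, counts scaled to equal library totals, of 21999 genes. All values were whole multiples of 1 read within 0.001, so whole reads were recovered, from 6943136 to 14817870 a library. CPM were taken as log2(CPM + 0.5), and genes averaging 0.5 CPM or more over the libraries compared were kept. limma 3.58.1 (R 4.3.3) tested hippocampus against cortex in 8 knockouts and in 8 controls, and the difference between these over 16 libraries with 4 group means, with Benjamini-Hochberg adjustment at 0.05. Foxp1 also had a two-sided exact permutation test. edgeR 4.0.16 and DESeq2 1.42.0 on recovered reads, other scalings, pseudocounts and minimums and leaving out libraries were alternatives. The test code was checked on simulated data. Promoters and loci came from RefSeq (GRCm38.p6).

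The genes and lists were chosen with earlier results of these data known. Named were Foxp1; the 12 largest called excesses each way with at least 5 CPM and no overlap; the 8 lost, gained and reversed and 6 narrowed and widened genes with the largest region by genotype differences and at least 1 CPM; and members of 34 lists, up to 3 called ones with the largest difference, or 2 with the highest level where none was called, and those with a called region by genotype difference. Of the list members so chosen, a part is printed, and some named genes are not reported here. Pvrl3 was matched as Nectin3 and Lphn2 and Lphn3 as Adgrl2 and Adgrl3. Every hippocampus number less 14 is the number of a cortex library of the same genotype. The deviations of these 8 pairs correlated at -0.02 to 0.16, with 3 above 0.1, and 4 correlated best with their own number. Such correlations cannot decide whether single mice gave both regions. The main tests treated the libraries as unpaired.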

Additional observations from a re-analysis of the deposited data

Results flagged for a closer look

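In a group of 4 libraries, 1 library was taken to stand apart where its gap to the nearest, as a share of the range of the group, was above the critical value of the Dixon test, and chance gives about 1 in 20 groups. This held for 47 of the 536 groups of the genes named here. In knockout hippocampus DJ15 these were Adamtsl1 at 15.7, Exph5 at 17.4, Gria1 at 1118, Myl4 at 2.36 and Npy at 43.1 CPM. The genes of knockout hippocampus DJ18 that stood apart were Epha6 at 77.3 and Loxl2 at 1.83 CPM. For knockout cortex DJ1 they were Cdh8 at 71.4, Cldn2 at 2.65, Cntnap2 at 246, Egr1 at 282, F5 at 11.1, Htr2a at 14.05, Kl at 15.9, Stard8 at 48.7, Tmem72 at 8.07 and Ttr at 202 CPM. In knockout cortex DJ2 these were Adamtsl1 at 5.64 and Epha6 at 42.4 CPM. The genes of knockout cortex DJ5 that stood apart were Ermn at 91.7 and Qrfpr at 10.3 CPM. For control hippocampus DJ17 they were Aspa at 54.2 and Slc9a4 at 19.1 CPM. In control hippocampus DJ22 these were Cpne4 at 196, Stac at 1.96 and Ttr at 442 CPM. The genes of control cortex DJ3 that stood apart were Cacna1e at 727, Cd36 at 1.39, Crym at 20.05, Egr1 at 245 and Scn1a at 465 CPM. For control cortex DJ6 they were Cldn2 at 0.885, Clic6 at 5.97, F5 at 11.1, Igfbpl1 at 0.443, Kl at 14.9, Lmo4 at 363, Tmem72 at 2.88 and Ttr at 132 CPM. In control cortex DJ7 these were C1ql2 at 0.283, Man1a at 94.97 and Nos1 at 45.1 CPM. The others were Lpl at 55.7 CPM in knockout hippocampus DJ16, Dusp4 at 16.4 CPM in knockout cortex DJ4, Camk2b at 955 CPM in control hippocampus DJ20, Gfap at 125 CPM in control hippocampus DJ21 and Etv1 at 89.6 CPM in control cortex DJ8. Choroid plexus genes, among them Ttr, Kl and Clic6, stood apart in knockout cortex DJ1 or control cortex DJ6, whose summed choroid plexus levels were the highest of the cortices.

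The regional difference differed between knockouts and controls, by limma with Benjamini-Hochberg adjustment over 13881 genes, for 83 of the genes named here. Among lost differences the change, knockouts minus controls in log2 units, was 0.68 for Cacna1i, 0.92 for Chrna4, -0.37 for Cntnap2, 1.63 for Deptor, -0.43 for Epha5, 2.10 for Hpse, 1.67 for Hsbp1l1, 1.33 for Htr2a, -0.66 for Kcnd2, -2.98 for Ndst4, -0.66 for Nectin3, 1.87 for Prr16, -1.23 for Rgs14, 1.80 for Rxfp2, -1.71 for Slitrk6, -2.38 for Stac and -1.14 for Wfs1. Among gained differences it was 2.06 for Bace2, 1.83 for Fibin, 0.59 for Kcnj10, 1.22 for Loxl2, -0.44 for Lrfn5, -0.37 for Nrxn3, 1.37 for Postn, -2.06 for Qrfpr, 1.39 for Scnn1a, 0.46 for Slitrk2, -1.41 for Sorcs3, -0.53 for Stxbp6 and 3.92 for Vgll3. Reversed differences changed by -0.78 for Bdnf, -1.40 for Col11a1, 1.28 for Cyp39a1, -1.63 for Dusp4, 1.32 for Fbxo32, -1.43 for Fgf10, -1.28 for Homer2, -2.90 for Lpl, -0.96 for Lrrtm4, -1.41 for Ptgs2 and 0.93 for Whrn. Narrowed differences changed by -0.90 for Bhlhe22, -0.52 for Cacna1e, -0.35 for Camk2b, -0.49 for Cdh8, -0.95 for Cpne4, 1.47 for Ddit4l, 1.58 for Dkkl1, -0.99 for Epha6, -1.41 for Fibcd1, -0.38 for Grm5, -1.31 for Htr4, 0.42 for Kcna2, 1.33 for Kcnab3, 1.17 for Kcns1, 0.56 for Lmo4, -0.62 for Lrrtm1, -0.61 for Man1a, 2.18 for Myl4, -0.77 for Nos1, 0.56 for Npy, -1.13 for Npy2r, 2.19 for Olfr78, -0.65 for Pcdh19, 0.86 for Pcdh7, -0.72 for Pcdh8, 0.88 for Pvalb, 1.29 for Rorb, 0.63 for Scn1a, -0.99 for Scn3b, -0.88 for Sema3e, -2.16 for Slc9a2, -2.86 for Slc9a4, 0.66 for Tbr1 and 0.75 for Tshz3. For widened differences the values were 1.18 for Adamtsl1, 1.93 for Calb2, 1.33 for Cd36, -1.29 for Chrm3, 0.93 for Etv1, -1.21 for Fst, -0.95 for Nptx2 and 0.57 for Unc5c.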

How the results depend on the processing

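No called difference of a named gene reversed its direction under any alternative. Over the fits that left out 1 library, counts ran from 4025 to 5094 for the knockouts' regional difference, 4463 to 5262 for the controls', 248 to 699 for the region by genotype difference, 2884 to 3393 kept, 71 to 207 lost, 49 to 199 gained, 23 to 54 reversed, 81 to 179 narrowed and 16 to 56 widened, and the Foxp1 difference in knockouts, which was not called, from -0.01 to 0.20. DESeq2 gave 172 lost, 126 gained and 53 widened differences and 543 called region by genotype differences, 359 of them among the 378; edgeR gave 354, with 319 shared. Without DJ1, DJ2, DJ15 and DJ16, whose deviations went together, a choice made after seeing the data, 215 region by genotype differences were called, with 68 lost, 37 gained and 49 narrowed. Without DJ4, DJ5, DJ18 and DJ19 the calls were 173, with 2577 in knockouts, 2045 kept, 16 gained, 14 reversed, 51 narrowed and 4 widened; both leave 2 knockouts a region, fewer samples than the full comparison. Of 105 named genes with a called region by genotype difference, 74 were called in every fit that left out 1 library, 65 with the myelin covariate, 60 without DJ1, DJ2, DJ15 and DJ16 and 52 without DJ4, DJ5, DJ18 and DJ19. With TMM the share of knockout calls higher in hippocampus was 50.2%, and with quantile normalization 49.4%, against 59.2%. The members of a class also changed. Of the 112 lost and 71 gained genes, 86 and 55 stayed in their class with TMM, and 69 and 38 without control hippocampus DJ20. Without DJ4, DJ5, DJ18 and DJ19, 40 of the 112 lost, 15 of the 71 gained and 3 of the 27 widened genes stayed, and 1951 of the 3225 kept. The regions' libraries share no replicate numbers in the labels; with libraries whose numbers differ by 14 joined as a replicate block, 118 gained and 44 widened differences, 520 region by genotype differences (352 among the 378) and 5361 knockout calls were found, and 4 of 8 pairs correlated best with their own number. Under that block the region by genotype calls of Cyp39a1, Fst and Loxl2 and the knockout call of Cyp39a1 were not made. The depth is too low to place genes near 0.5 CPM, where 1 read is worth 0.0675 to 0.144 CPM.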
